A study of Homo sapiens with 24 samples.

Results

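Carbonic anhydrases convert carbon dioxide and water into bicarbonate and protons and back, and bicarbonate transporters of the SLC4 family move the bicarbonate across membranes. Together with proton pumps and lactate-proton transporters they set the pH inside and around a cell. In tumor cells with a high glycolytic rate, acid has to leave the cytosol, and CA9 is one of the best known targets of the hypoxia-inducible transcription factors (HIF). Messenger RNA of 7 such genes was examined here, namely the carbonic anhydrases CA9, CA12, CA2, CA11 and CA13 and the bicarbonate transporters SLC4A7 and SLC4A2. They were taken by symbol and all 7 were found among the 23106 genes counted in each library.

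RNA-seq libraries of polyadenylated RNA came from A549 (lung), HCT-116 (colorectal), PC3 (prostate) and T47D (breast) cancer cells, with 3 libraries of cells in 21% oxygen (normoxia) and 3 of cells given 0.5% oxygen (hypoxia) for 16 h in each line. No genetic change or drug was applied to any group, all media contained fetal bovine serum, and A549 and PC3 cells grew in F12K medium, HCT-116 cells in McCoy's 5a and T47D cells in DMEM. A difference between lines can therefore not be told apart from a difference between media, except between A549 and PC3 cells. The study's methods name alternative kits for RNA extraction and library preparation without saying which line had which. Kits may thus also differ between lines, A549 and PC3 included. Nothing in the labels says that replicates were separate cultures, so p values measure the spread between these libraries, which may be technical. In such bulk samples, fewer cells of a type and less RNA per cell cannot be told apart.

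Between 22698584 and 62850747 fragments were counted per library, so that 3 counts corresponded to 0.0436 to 0.132 CPM. CPM is here the count scaled by library size after TMM normalization over all 24 libraries. VEGFA, EGLN3 and ANKRD37, which are textbook hypoxia-induced genes, were upregulated in hypoxia in all 4 lines. Each had its smallest log2 fold change in PC3 cells (0.56, 1.5 and 0.99 in this order). KRT8 and KRT18 were high in every line, T47D cells expressed ESR1, PGR and GATA3, and HCT-116 cells expressed CDX2. Several defining markers were at or near 0 in their own line, namely NKX2-1, SFTPB and SFTPC in A549 cells, CDX1, VIL1 and LGALS4 in HCT-116 cells, and KLK3 in PC3 cells. EPCAM was at 4.01 CPM in normoxic A549 cells against 172 to 393 CPM in the other lines. The leukocyte marker PTPRC stayed at or under 0.261 CPM. Both replicate 3 libraries of T47D cells stood apart, with a standard deviation of their log2 deviations from the group mean of 0.427 in normoxia and 0.466 in hypoxia, against 0.261 to 0.387 in the other 22 libraries. Calls and fold changes in T47D cells are given with all libraries and, where named, without these 2, which leaves 2 libraries against 2.

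A gene is called upregulated or downregulated where the 3 hypoxic libraries of a line differed from the 3 normoxic ones by more than 1.2-fold at an adjusted p below 0.05 (quasi-likelihood test of edgeR, adjusted over all genes tested by the Benjamini-Hochberg method). In A549 cells, 2 of the 7 genes were upregulated and 1 was downregulated, where 17.6% of all genes tested were upregulated and 17.8% downregulated. The counts were the same in HCT-116 cells, where the shares over all genes were 23.3% and 27%. In PC3 cells, 3 of 6 genes tested were upregulated and 1 was downregulated, against 16.6% and 15.7% of all genes. In T47D cells, 2 of 6 were upregulated and none downregulated, against 6.55% and 6.69% of all genes. Without both replicate 3 libraries, 4 of 6 were upregulated and none downregulated in T47D cells, against 20.4% and 22% of all genes. The 3 hypoxic and 3 normoxic libraries did not overlap for 3 of 7 genes in A549 cells, 3 of 7 in HCT-116 cells, 5 of 6 in PC3 cells and 3 of 6 in T47D cells. Over all genes tested these shares were 47.9%, 60.4%, 50.6% and 32.3%. CA9 was the one member upregulated in all 4 lines, as were 2.58% of the genes tested in all 4, and CA12 was upregulated in 3 lines, where 9.13% of genes were upregulated in 3 or 4.

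**Figure D1:**
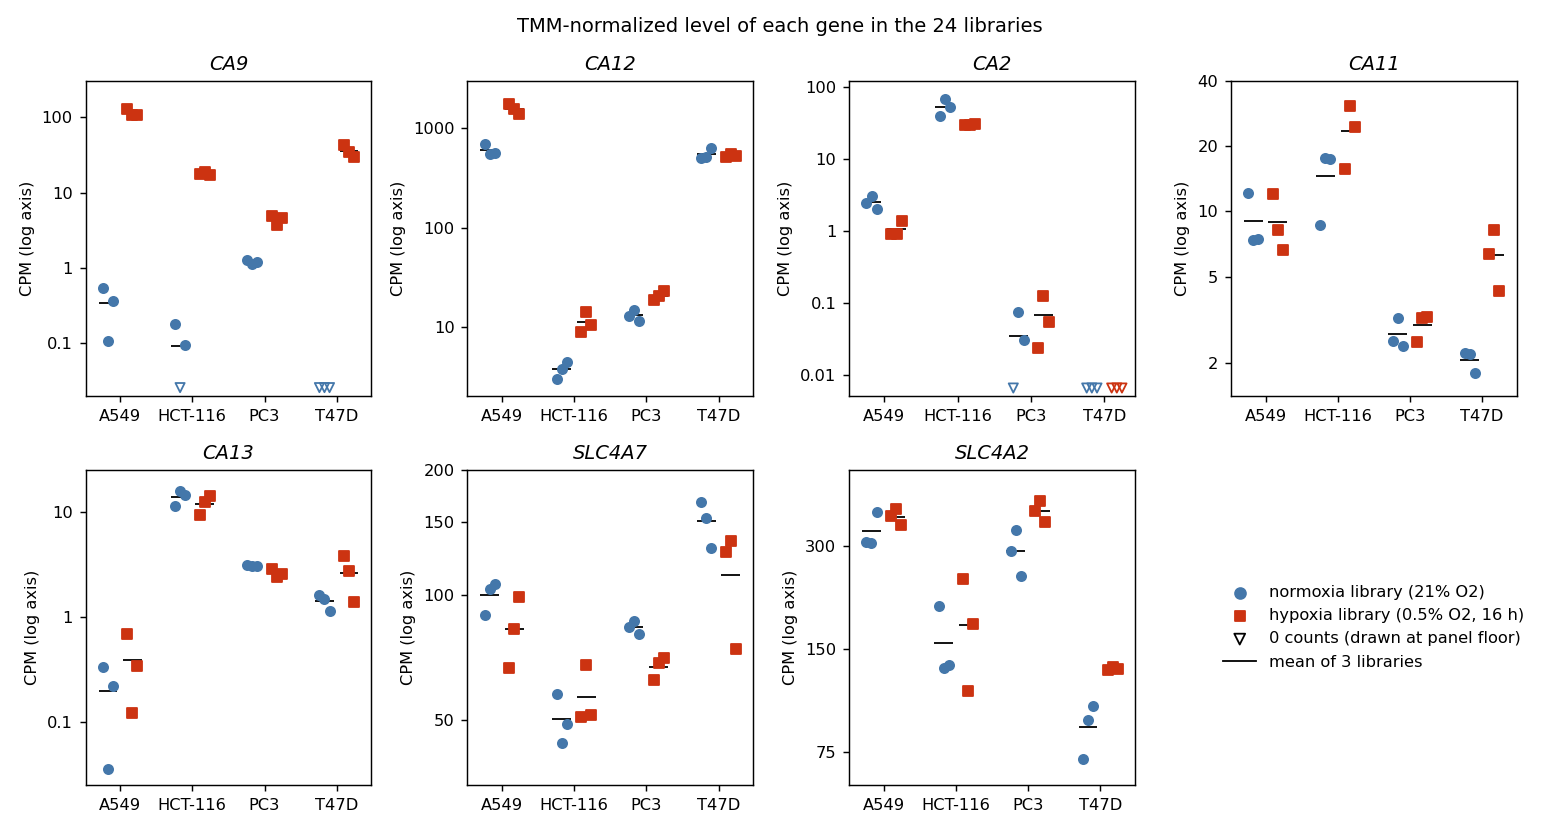
Level of each of the 7 genes in the 24 libraries, in CPM on a log axis that differs between panels. Blue circles are normoxic and red squares hypoxic libraries, black lines are means of 3 libraries and open triangles are libraries with 0 counts. The hypoxic libraries lie above the normoxic ones for CA9 in all 4 lines and for CA12 in 3, whereas CA2 was lower in hypoxia in A549 and HCT-116 cells and was not counted in T47D cells.

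CA9 encodes a carbonic anhydrase that sits in the plasma membrane with its catalytic domain facing outward. The gene spans chr9:35673925-35681156 on the plus strand of GRCh37, with 11 exons in its canonical transcript. CA12, a second membrane-bound enzyme with an outward-facing catalytic domain, spans chr15:63613577-63674045 on the minus strand, also with 11 exons. The 250 bases before the RefSeq start sites of both genes are shown because these were the members upregulated in 3 or more lines, and those before one start of SLC4A7 because they hold one of the motifs searched, GCGTG, in a gene that was not upregulated in any line. HIF binds DNA at a short core, searched for here as ACGTG and GCGTG on both strands. Coordinates are those of GRCh38.p14 in RefSeq, which differ from the GRCh37 positions used elsewhere. The sequences run 5′ to 3′ on the strand of the gene, and capitals mark a match, which reads CACGT or CACGC where the match lies on the opposite strand.
CA9 (chr9:35673678-35673927, plus strand): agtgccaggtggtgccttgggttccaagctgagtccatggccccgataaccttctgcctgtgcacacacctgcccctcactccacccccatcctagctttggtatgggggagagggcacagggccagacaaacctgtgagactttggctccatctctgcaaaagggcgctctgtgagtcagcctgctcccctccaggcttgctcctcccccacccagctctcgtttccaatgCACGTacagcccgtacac
CA12 (chr15:63381847-63382096, minus strand): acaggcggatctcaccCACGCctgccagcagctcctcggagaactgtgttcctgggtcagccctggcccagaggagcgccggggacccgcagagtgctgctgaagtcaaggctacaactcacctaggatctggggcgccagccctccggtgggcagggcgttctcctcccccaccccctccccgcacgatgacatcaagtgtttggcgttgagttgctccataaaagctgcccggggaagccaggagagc
SLC4A7, first start (chr3:27484385-27484634, minus strand): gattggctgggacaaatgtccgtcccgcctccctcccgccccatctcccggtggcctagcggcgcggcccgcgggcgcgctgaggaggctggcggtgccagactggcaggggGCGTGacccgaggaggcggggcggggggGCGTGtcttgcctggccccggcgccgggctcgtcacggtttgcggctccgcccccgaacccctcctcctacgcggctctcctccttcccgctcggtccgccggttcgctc
The CA9 window held 1 match, ACGTG on the opposite strand at -18 to -14 from the start. CA12 held GCGTG on the opposite strand at -234 to -230, and once more within the 50 bases after the start. The first start of SLC4A7 held GCGTG on its own strand at -138 to -134 and at -110 to -106, and on the opposite strand within the 50 bases after the start, and the second start of SLC4A7 held neither. Each of the 4 starts of SLC4A2 held 2 to 8 matches, and at 2 of them ACGTG on one strand overlapped ACGTG on the other. The windows of these 2 starts overlap (chr7:151062297-151062546 and chr7:151062392-151062641). Shared sites are therefore counted at both starts, and each overlapping site is counted once on either strand. Of 35116 promoter windows of the same 300 bases, ACGTG was in 21.4%, GCGTG in 36.5% and either in 48.4%. No promoter window of CA2, CA11 or CA13 was searched, so nothing is said about motifs in these genes.

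CA9 had hardly any messenger RNA in normoxia and was upregulated in hypoxia in every line, by sizes that differed between the lines. In A549 cells, the 3 normoxic libraries had 0.551, 0.107 and 0.361 CPM and the 3 hypoxic libraries 129, 108 and 106 CPM. This was a 339-fold increase (log2 fold change 8.40 ± 0.29 SE, adjusted p = 6.84e-09, edgeR). In HCT-116 cells, normoxic levels were 0.18, 0 and 0.0957 CPM and hypoxic levels 17.3, 18.8 and 17.2 CPM, a 165-fold increase. Replicate 2 of normoxic HCT-116 cells had no CA9 count at all, and the other 2 libraries had at most 10. The log2 fold change there was 7.37 ± 0.47 (adjusted p = 2.28e-06, edgeR).

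PC3 cells had the smallest CA9 response and the highest normoxic level. Their normoxic libraries had 1.28, 1.14 and 1.19 CPM and their hypoxic libraries 4.83, 3.73 and 4.54 CPM, all 3 above the normoxic ones. The increase was 3.51-fold (log2 fold change 1.81 ± 0.21, adjusted p = 0.000974, edgeR). In T47D cells, no CA9 fragment was counted in any of the 3 normoxic libraries, and the hypoxic libraries had 42.1, 34.2 and 29.8 CPM (35.4 ± 6.23, SD, n = 3). Set against 3 counts in each normoxic library, which is 0.0537 CPM on average and covers counting error only, CA9 was at least 659-fold higher in hypoxia (adjusted p = 2.06e-07, edgeR, and 1.61e-07 without both replicate 3 libraries). Taking the hypoxic library with the least CA9 in its place, it was at least 556-fold higher. The CA9 gene overlaps ARHGEF39 on the opposite strand by 1939 bases, and the strand setting of the counting is not given in the sources used here. ARHGEF39 was counted at 6.5 to 24.1 CPM on average in each group without passing the test in any line, and normoxic T47D libraries had 1095 to 1791 ARHGEF39 counts beside 0 counts of CA9.

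The hypoxia effect on CA9 differed between the lines (interaction of line and oxygen state in one edgeR fit of 24 libraries, adjusted p = 7.28e-09, where 18.3% of 16089 genes passed at an adjusted p under 0.05). CA9 had the smallest interaction p of the 7 genes. The log2 effect was 6.54 ± 0.46 larger in A549 than in PC3 cells (adjusted p = 5.07e-08, over all genes and the 6 pairs of lines) and 5.62 ± 0.53 larger in HCT-116 than in PC3 cells (adjusted p = 1.46e-06). Between A549 and HCT-116 cells, the difference of 0.93 ± 0.65 did not pass the test (adjusted p = 0.462). Differences from T47D cells passed as well, but no size is given because the normoxic level of T47D cells was 0. In hypoxia, the levels followed the order A549 (114 ± 13.1 CPM), T47D (35.4 ± 6.23), HCT-116 (17.8 ± 0.928) and PC3 (4.36 ± 0.571), and neighbors in this order differed by 3.23-fold, 1.99-fold and 4.08-fold. The adjusted p values of these 3 steps were 5.2e-06, 0.00186 and 7.53e-07 (edgeR). In normoxia, the order was PC3, A549, HCT-116 and T47D, so PC3 cells were first in normoxia and last in hypoxia. Over the 24 libraries, the genes whose log2 CPM was most like that of CA9 were P4HA2 (Pearson r = 0.939), PGK1 (r = 0.93) and ALDOA (r = 0.923), among 11270 candidates. P4HA2 encodes a subunit of collagen prolyl 4-hydroxylase, and PGK1 and ALDOA encode glycolytic enzymes. These values, like those given for the other genes below, describe libraries that share cell lines.

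CA12 was upregulated in A549, HCT-116 and PC3 cells and had nearly equal levels in both oxygen states in T47D cells. In A549 cells, levels were 691, 555 and 563 CPM in normoxia and 1740, 1560 and 1410 CPM in hypoxia. Every hypoxic A549 library was above every normoxic one, and the increase was 2.6-fold (log2 fold change 1.38 ± 0.13, adjusted p = 1.93e-05, edgeR). HCT-116 cells had far less CA12, with 3, 3.73 and 4.45 CPM in normoxia and 8.94, 14.1 and 10.5 CPM in hypoxia. Their increase was 2.76-fold (1.47 ± 0.25 on the log2 scale, adjusted p = 0.000502, edgeR).

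In PC3 cells, CA12 had 13, 14.9 and 11.5 CPM in normoxia and 18.6, 20.6 and 22.8 CPM in hypoxia. The states did not overlap, and the increase was 1.52-fold (log2 fold change 0.60 ± 0.13, adjusted p = 0.0076, edgeR). T47D cells had 500, 512 and 633 CPM in normoxia and 517, 554 and 524 CPM in hypoxia, so that the 3 hypoxic libraries fell within the normoxic range. The log2 fold change of -0.12 ± 0.22 did not pass (adjusted p = 0.734), nor did that of -0.02 without both replicate 3 libraries (adjusted p = 0.94). T47D cells thus had a CA12 level in normoxia that did not differ from that of A549 cells (fold 1.1, adjusted p = 0.498), and the lines parted in hypoxia, where A549 cells had 2.96-fold more (adjusted p = 2.66e-08).

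The effect on CA12 differed between lines (interaction adjusted p = 0.000325, edgeR). The log2 effect was 1.43 ± 0.25 larger in A549 than in T47D cells (adjusted p = 0.00122) and 1.63 ± 0.25 larger in HCT-116 than in T47D cells (adjusted p = 0.000433). It was also 0.93 ± 0.26 larger in HCT-116 than in PC3 cells (adjusted p = 0.0297). The differences of A549 from PC3 cells (0.73 ± 0.25, adjusted p = 0.0771) and of PC3 from T47D cells (0.70 ± 0.25, adjusted p = 0.0916) did not pass. Normoxic CA12 was 161-fold higher in A549 than in HCT-116 cells (adjusted p = 1.46e-18), whereas the effects of hypoxia in these 2 lines differed by 0.20 ± 0.25 on the log2 scale (adjusted p = 0.74). MEGF9 (Pearson r = 0.98), CADM1 (r = 0.976) and IGF1R (r = 0.975) were most like CA12 over the 24 libraries. The correlation of CA9 with CA12 over the same libraries was 0.23.

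CA2, a fast cytosolic enzyme, was downregulated in both lines with enough counts to test it. The gene lies at chr8:86376197-86393722 on the plus strand of GRCh37. In HCT-116 cells, the line with the most CA2, levels were 39.1, 66.9 and 52.3 CPM in normoxia and 29.1, 29.1 and 30.6 CPM in hypoxia. The normoxic libraries varied more than the hypoxic ones, and all 3 were above them. CA2 was 1.94-fold lower in hypoxia (log2 fold change -0.96 ± 0.21, adjusted p = 0.00252, edgeR). In A549 cells, levels were 2.42, 2.99 and 2 CPM in normoxia and 0.911, 0.9 and 1.35 CPM in hypoxia, again without overlap, and CA2 was 2.36-fold lower (-1.24 ± 0.29, adjusted p = 0.00674, edgeR).

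PC3 libraries had 0 to 6 counts of CA2 and T47D libraries had none in any of the 6, so neither line was tested. The effects in A549 and HCT-116 cells differed by 0.40 ± 0.36 on the log2 scale, which did not pass (adjusted p = 0.595, edgeR). In normoxia, HCT-116 cells had 21.3-fold more CA2 than A549 cells (adjusted p = 7.81e-12), and in hypoxia 28.1-fold more (adjusted p = 3.8e-12). The genes most like CA2 over the libraries were AGPAT5 (Pearson r = 0.978), SFXN1 (r = 0.975) and SEPT10 (r = 0.975), and among the other 6 members CA11 was the closest (r = 0.86). Differences between lines enter this value. In HCT-116 cells, where both genes were highest, the log2 fold change in hypoxia was -0.96 for CA2 and 0.58 for CA11, which was not called.

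CA11 encodes a secreted protein of the family without catalytic activity. The gene lies at chr19:49141203-49149444 on the minus strand of GRCh37 and is overlapped by the pseudogene SEC1P on the opposite strand, which had 0 to 10 counts per library. In the main fit of each line, without a replicate block, CA11 passed the test in T47D cells and not in the other 3 lines. Levels in T47D cells were 2.23, 2.19 and 1.78 CPM in normoxia and 6.37, 8.23 and 4.28 CPM in hypoxia. All 3 hypoxic libraries were above the normoxic ones, and replicate 3, the library that stood apart, was the lowest in both states. The increase was 2.86-fold (log2 fold change 1.52 ± 0.31, adjusted p = 0.0095, edgeR), and the log2 fold change was 1.62 without both replicate 3 libraries (adjusted p = 0.000394). Without replicate 1 of normoxic T47D cells, the value of 1.59 no longer passed (adjusted p = 0.0747).

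In HCT-116 cells, CA11 had 8.67, 17.6 and 17.5 CPM in normoxia and 15.7, 30.6 and 24.5 CPM in hypoxia. Replicate 1 was the lowest library in both states, and the states overlapped. The log2 fold change of 0.58 ± 0.29 did not pass (adjusted p = 0.109, edgeR), but that of 0.86 without replicate 1 of hypoxic cells did (adjusted p = 0.02). With the replicate number as a block in the fit, 0.59 passed too (adjusted p = 0.0107, edgeR). The value of 0.65 without the filter on low counts also passed (adjusted p = 0.0211, edgeR). A549 cells had 7.39 to 12.2 CPM in normoxia and 6.61 to 12 CPM in hypoxia (-0.01 ± 0.25, adjusted p = 0.979). PC3 cells had 2.39 to 3.2 CPM and 2.48 to 3.24 CPM (0.08 ± 0.21, adjusted p = 0.778).

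The effect on CA11 differed between lines (interaction adjusted p = 0.0307, edgeR), and it was smaller by 1.62 ± 0.43 in A549 than in T47D cells (adjusted p = 0.0246) and by 1.48 ± 0.44 in PC3 than in T47D cells (adjusted p = 0.0443). The effect in HCT-116 cells was not shown to differ from that in T47D cells (-0.91 ± 0.42, adjusted p = 0.212). The adjusted p of the interaction ranged from 0.0127 to 0.0898 when 1 library at a time was left out and was above 0.05 in 10 of these 24 fits. HCT-116 cells had the highest level in both states, 1.62-fold above A549 cells in normoxia (adjusted p = 0.0417) and 2.63-fold above them in hypoxia (adjusted p = 0.000238). PC3 and T47D cells did not differ in normoxia (adjusted p = 0.277), whereas in hypoxia T47D cells had 2.11-fold more (adjusted p = 0.00344) and did not differ from A549 cells (adjusted p = 0.136). RINL (Pearson r = 0.946), ID1 (r = 0.935) and KANK3 (r = 0.924) were most like CA11.

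CA13, a second cytosolic enzyme of the list (chr8:86132816-86196302, plus strand), was not called in any line. The level was highest in HCT-116 cells, with 11.3, 15.6 and 14.2 CPM in normoxia and 9.34, 12.3 and 14 CPM in hypoxia (log2 fold change -0.33 ± 0.23, adjusted p = 0.236, edgeR). In PC3 cells, the hypoxic libraries with 2.84, 2.36 and 2.55 CPM were all below the normoxic ones with 3.07, 3.06 and 3.02 CPM, but the difference did not pass (-0.29 ± 0.19, adjusted p = 0.253). A549 cells had 2 to 17 counts per library in normoxia and 6 to 40 in hypoxia, and the estimate of 0.99 carried an SE of 0.74.

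In T47D cells, CA13 had 1.6, 1.48 and 1.13 CPM in normoxia and 3.76, 2.71 and 1.39 CPM in hypoxia. Replicate 3 was the lowest in both states, and its hypoxic level fell within the normoxic range. The log2 fold change was 0.81 ± 0.40 (adjusted p = 0.187, edgeR) with all 6 libraries and 0.97 without both replicate 3 libraries, which passed (adjusted p = 0.0246). Leaving out the hypoxic replicate 3 alone gave 1.12 (adjusted p = 0.0342). The interaction did not pass (adjusted p = 0.189). The order of levels in normoxia was HCT-116, PC3, T47D and A549, with each neighbor differing (largest adjusted p = 0.0177). In hypoxia, PC3 and T47D cells did not differ (fold 1.02, adjusted p = 0.976). DMKN (Pearson r = 0.951), ARVCF (r = 0.941) and OGDHL (r = 0.94) were most like CA13.

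SLC4A7 encodes an electroneutral sodium-bicarbonate cotransporter that brings bicarbonate into the cell, and SLC4A2 encodes a chloride-bicarbonate exchanger that lets bicarbonate out. SLC4A7 lies at chr3:27414212-27525911 on the minus strand of GRCh37, with 26 exons, and SLC4A2 at chr7:150754297-150773613 on the plus strand, with 23 exons. In the fits of single lines with TMM scaling and all libraries, PC3 was the one line in which either passed the test, and there they moved in opposite directions by small amounts. SLC4A7 had 83.8, 86.6 and 80.8 CPM in normoxic PC3 cells and 62.7, 68.8 and 70.5 CPM in hypoxic ones, without overlap. It was 1.29-fold lower in hypoxia (log2 fold change -0.37 ± 0.09, adjusted p = 0.012, edgeR). SLC4A2 had 290, 334 and 245 CPM in normoxia and 380, 406 and 352 CPM in hypoxia, also without overlap, and was 1.27-fold higher (0.34 ± 0.11, adjusted p = 0.0419).

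Both calls in PC3 cells depended on the library and the fit. The SLC4A2 call was lost in 5 of the 6 fits that left out 1 library, with adjusted p from 0.0502 to 0.16, and the SLC4A7 call was lost without replicate 1 of hypoxic cells (adjusted p = 0.0532). In one fit of all 24 libraries, neither passed in PC3 cells (adjusted p = 0.3 for SLC4A7 and 0.243 for SLC4A2), whereas SLC4A2 passed in T47D cells in that fit (0.57, adjusted p = 0.0478). SLC4A2 is overlapped over 688 bases on the opposite strand by CDK5, which had 34.8 CPM in normoxic and 33.6 CPM in hypoxic PC3 cells.

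In A549 cells, SLC4A7 had 89.7, 104 and 106 CPM in normoxia and 66.7, 83 and 98.8 CPM in hypoxia (log2 fold change -0.28 ± 0.14, adjusted p = 0.143, edgeR). The states overlapped, and the value of -0.41 without replicate 3 of hypoxic cells (adjusted p = 0.0307) and that of -0.40 with total counts as scaling (adjusted p = 0.036) passed. In T47D cells, levels were 168, 153 and 130 CPM in normoxia and 127, 135 and 74.3 CPM in hypoxia, with replicate 3 the lowest in both states. The log2 fold change there was -0.51 ± 0.24 (adjusted p = 0.173) with all libraries and -0.40 without both replicate 3 libraries (adjusted p = 0.0561). HCT-116 cells had 44.1 to 57.9 CPM in normoxia and 51 to 67.9 CPM in hypoxia (0.05 ± 0.20, adjusted p = 0.844).

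SLC4A2 had 71.4, 92.7 and 102 CPM in normoxic T47D cells and 130, 133 and 131 CPM in hypoxic ones. The hypoxic libraries were all above the normoxic ones, but the log2 fold change of 0.49 ± 0.20 did not pass (adjusted p = 0.111, edgeR). Without both replicate 3 libraries it was 0.59 and passed (adjusted p = 0.0127). A549 cells had 306 to 376 CPM in normoxia and 345 to 384 CPM in hypoxia (0.14 ± 0.12, adjusted p = 0.373). In HCT-116 cells, levels were 132 to 200 CPM and 113 to 240 CPM, and the estimate had the largest SE of the 4 lines (0.06 ± 0.28, adjusted p = 0.873). Neither the effect on SLC4A7 (interaction adjusted p = 0.272) nor that on SLC4A2 (adjusted p = 0.594) differed between lines by the test.

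Levels of the 2 transporters varied less between lines than those of the carbonic anhydrases. In normoxia, SLC4A7 ranged from 50.3 CPM in HCT-116 cells to 150 CPM in T47D cells (2.98-fold, adjusted p = 7.26e-08), with A549 and PC3 cells between them and not different from each other (adjusted p = 0.234). SLC4A2 ranged from 88.7 CPM in T47D cells to 330 CPM in A549 cells (3.72-fold, adjusted p = 2.27e-08), and A549 and PC3 cells again did not differ (adjusted p = 0.432). T47D cells thus had the most SLC4A7 and the least SLC4A2. MON2 (Pearson r = 0.903), SEMA3C (r = 0.891) and EDEM3 (r = 0.885) were most like SLC4A7, and TMEM140 (r = 0.952), RHOG (r = 0.946) and KANSL3 (r = 0.944) most like SLC4A2. Over all 7 genes and 6 pairs of lines, 10 of 42 differences between lines in the hypoxia effect passed, 38 of 42 in the normoxic level and 36 of 42 in the hypoxic level. The shares over all genes and pairs were 6.54%, 66% and 64.6%. In 3 of the 42 pairs, those of CA2 effects with T47D cells, there were no counts to estimate an effect from. All differences in effect that passed were of CA9, CA12 or CA11, and those of CA9 with T47D cells rest on a normoxic count of 0. The CA2 levels of PC3 and T47D cells passed as different in both states, but on 0 to 6 counts per library against 0. By pair, 11.6% (A549 and HCT-116), 2.13% (A549 and PC3), 3.36% (A549 and T47D), 10.9% (HCT-116 and PC3), 7.88% (HCT-116 and T47D) and 3.44% (PC3 and T47D) of all genes differed in effect. In the same order of pairs, 65.1%, 61%, 67.5%, 66%, 68.7% and 67.9% differed in the normoxic level, and 60.5%, 62.9%, 67.3%, 61%, 67.8% and 68.3% in the hypoxic level.

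**Figure D2:**
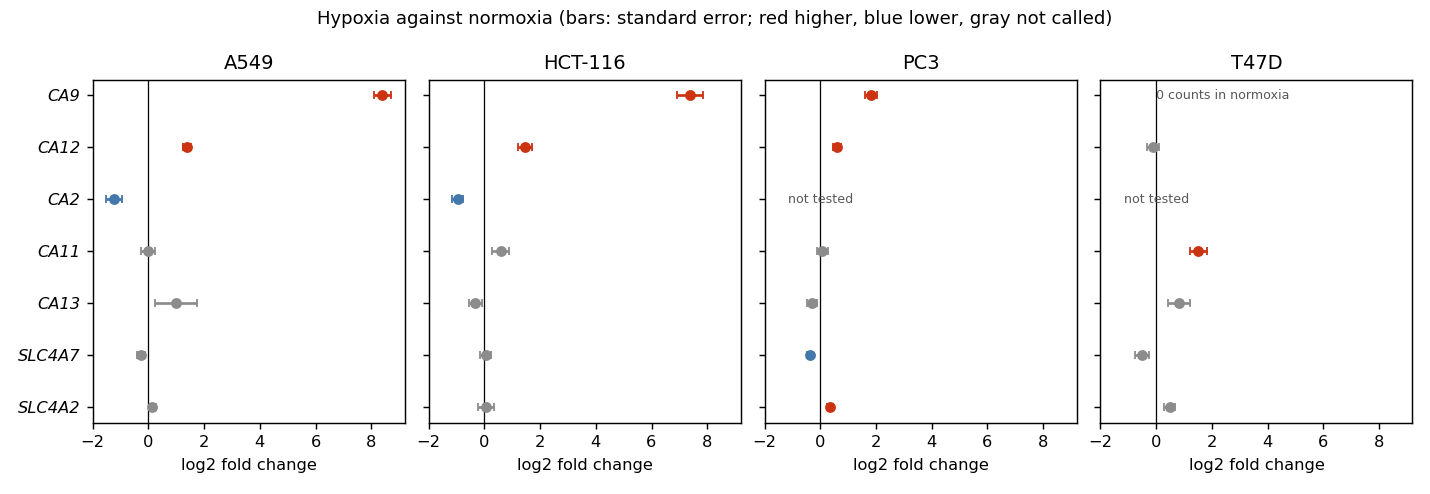
Log2 fold change of each gene in hypoxia against normoxia in the 4 lines, from an edgeR fit for each line; bars are standard errors, red is upregulated, blue downregulated and gray neither. CA9 stands far to the right in A549 (8.40) and HCT-116 cells (7.37) and less so in PC3 cells (1.81), and has no value in T47D cells, where it had 0 counts in normoxia.

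Levels of different genes can be compared only per length of transcript, for which CPM was divided by the length of the canonical transcript in kilobases. Over the 15 carbonic anhydrase genes in the files, the summed level in A549 cells was 114 ± 13.4 CPM per kb in normoxia and 344 ± 35.5 CPM per kb in hypoxia (SD, n = 3), without overlap. In T47D cells, it was 97.4 ± 11.5 and 122 ± 5.96 CPM per kb, and in PC3 cells 6.62 ± 0.488 and 10.2 ± 0.717 CPM per kb, also without overlap. HCT-116 cells had 48 ± 12.4 and 50.2 ± 6.09 CPM per kb, and the states overlapped. Without both replicate 3 libraries, the sum in T47D cells was 90.7 CPM per kb in normoxia and 125 CPM per kb in hypoxia. CA9 and CA12 were counted among these 15 genes, so the sums are a description without a test.

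The mixture of carbonic anhydrases differed between lines and changed in hypoxia. CA12 made up 86.8% ± 0.872 of the summed level in normoxic A549 cells and 92.2% ± 1.81 in normoxic T47D cells, whereas in normoxic HCT-116 cells CA2 made up 70.5% ± 2.57 and CA12 only 1.3% ± 0.24. In hypoxia, CA9 reached a share of 21.5% ± 0.773 in A549, 23.1% ± 2.3 in HCT-116, 27.7% ± 3 in PC3 and 18.8% ± 2.67 in T47D cells (19.7% without both replicate 3 libraries). In normoxia, the CA9 share was 0.187%, 0.153%, 11.9% and 0% in the same order. The hypoxic levels of CA9 behind these shares ranged from 4.36 CPM in PC3 to 114 CPM in A549 cells. In HCT-116 cells, the share of the cytosolic enzymes CA1, CA2, CA3, CA7 and CA13 was 78.3% ± 2.81 in normoxia and 44.3% ± 4.47 in hypoxia, and that of the cell-surface enzymes CA4, CA9, CA12 and CA14 was 1.84% ± 0.285 and 26.9% ± 2.16. In A549 and T47D cells, the cell-surface enzymes held 87% and 92.3% in normoxia and 96.4% and 90.7% in hypoxia. The family members without catalytic activity (CA8, CA10 and CA11) held between 3.15% and 27.9% of the summed level over the 8 groups, most of it in HCT-116 cells from CA11.

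**Figure D3:**
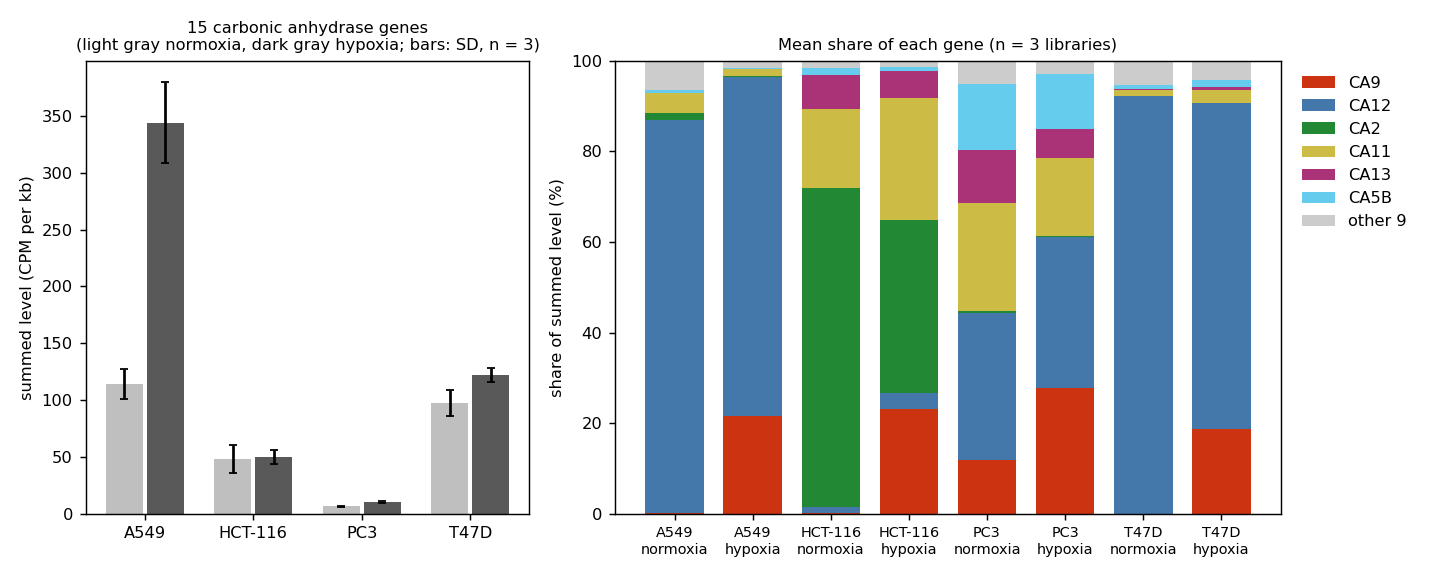
Left, summed level of 15 carbonic anhydrase genes per group in CPM per kb (bars are means, error bars the SD of 3 libraries). Right, mean share of each gene in that sum in percent, with the other 9 genes in gray. CA12 fills most of the sum in A549 and T47D cells and CA2 in normoxic HCT-116 cells, and CA9 takes between 18.8% and 27.7% in hypoxia.

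Among the 7 genes, CA12 had the highest level per kb in both states of A549 cells (98.9 and 258 CPM per kb) and T47D cells (89.9 and 87.2 CPM per kb). In PC3 cells, SLC4A2 was first (70.3 and 92 CPM per kb), as it was in hypoxic HCT-116 cells (42.8 CPM per kb). In normoxic HCT-116 cells, SLC4A2 (37.8 ± 9.38 CPM per kb) and CA2 (33.8 ± 8.92 CPM per kb) lay within their spread, and their order turned when the length of all exons of the gene was used (20.6 and 26.3 CPM per kb). CA9 rose from 0.22 to 74 CPM per kb in A549 cells, behind CA12 and SLC4A2 (88.5 CPM per kb), and was ahead of SLC4A2 with the length of all exons (71.6 against 48.2 CPM per kb).

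The other genes of pH control were taken from lists of 6 kinds. Their counts are to be read against the shares of all genes tested, which were 17.6% upregulated and 17.8% downregulated in A549, 23.3% and 27% in HCT-116, 16.6% and 15.7% in PC3 and 6.55% and 6.69% in T47D cells, or 20.4% and 22% in T47D cells without both replicate 3 libraries. Of the 10 other carbonic anhydrases, 2 or 3 passed the filter on low counts in a line. CA5B, a mitochondrial enzyme, was upregulated in T47D cells, where it had 5.48, 5.74 and 6.05 CPM in normoxia and 12.7, 14.1 and 12.2 CPM in hypoxia (log2 fold change 1.09 ± 0.21, adjusted p = 0.00676, edgeR, and 1.16 without both replicate 3 libraries, adjusted p = 0.000511). In HCT-116 cells it was downregulated, from 4.82, 5.34 and 4.26 CPM to 2.69, 3.14 and 3.13 CPM (-0.81 ± 0.27, adjusted p = 0.0216). CA8, a relative without catalytic activity, had 40.4 CPM in normoxic A549 and 28.3 CPM in normoxic T47D cells and did not pass in either. CA5A, CA6 and CA10 had 0 counts in all 24 libraries, and CA1 had 1 count in 1 library.

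Among the 12 other SLC4 and SLC26 transporters, 6 or 7 were tested in a line, with 1 upregulated and 1 downregulated in A549 and in PC3 cells, 2 downregulated in HCT-116 cells and none called in T47D cells, or 1 downregulated without both replicate 3 libraries (SLC4A11, -0.65, adjusted p = 0.0287, edgeR). These counts of 1 of 7 or 1 of 6 lie near the shares of all genes. SLC4A5, a sodium-bicarbonate cotransporter, was downregulated in A549 (log2 fold change -0.67) and PC3 cells (-0.47), and SLC4A4, another one, was upregulated in A549 cells (0.55). SLC4A11 fell by 0.62 on the log2 scale in HCT-116 cells and rose by 0.50 in PC3 cells, and SLC4A3, a chloride-bicarbonate exchanger, fell by 0.77 in HCT-116 cells. Of the sodium-proton exchangers, 7 were tested in each line. SLC9A7, an exchanger of the Golgi, was upregulated in A549 (0.62) and HCT-116 cells (0.95), and SLC9A2 was the one exchanger downregulated with all libraries, in A549 cells (-0.52). With all libraries, no exchanger was called in T47D cells, but without both replicate 3 libraries several were, among them SLC9A7 (0.63, adjusted p = 0.00636, edgeR) and SLC9A5 (-1.14, adjusted p = 0.0029).

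The lactate-proton transporter SLC16A3 was upregulated in all 4 lines, by 3.01 ± 0.15 on the log2 scale in A549, 1.86 ± 0.21 in HCT-116, 1.2 ± 0.10 in PC3 and 3.36 ± 0.22 in T47D cells (largest adjusted p = 0.000132, edgeR). In T47D cells it went from 24.1, 24.5 and 32.8 CPM to 279, 316 and 286 CPM, and the log2 fold change was 3.51 without both replicate 3 libraries (adjusted p = 4.26e-07, edgeR). Like CA9 and the hypoxia-induced genes VEGFA, EGLN3 and ANKRD37, SLC16A3 had its smallest response in PC3 cells. BSG, its chaperone, was upregulated in A549 (0.73) and HCT-116 cells, EMB, another chaperone of the family, was downregulated in PC3 cells (-0.48), and SLC16A8 was downregulated in HCT-116 cells from 0.608 to 0.126 CPM. Of 5 genes of this list tested in A549, PC3 and T47D cells and 6 in HCT-116 cells, 2 were upregulated in A549 and HCT-116 cells and 1 in PC3 and T47D cells, and 2 were downregulated in HCT-116 and PC3 cells. Without both replicate 3 libraries, 2 of the 5 were upregulated and 1 downregulated in T47D cells.

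Of the V-ATPase, the proton pump of endosomes and lysosomes, 20 to 22 of 25 listed genes were tested in a line. Upregulated were 4 in A549, 3 in HCT-116, 2 in PC3 and 0 in T47D cells, and downregulated were 4, 8, 4 and 3 in the same lines. For example, 4 of 22 in A549 cells is near the share of all genes there. Without both replicate 3 libraries, 2 of 21 were upregulated and 7 downregulated in T47D cells. ATP6V1G1, a subunit of the part of the pump that splits ATP, was downregulated in all 4 lines, as were 3.36% of the genes tested in all 4, with log2 fold changes of -0.69 in A549, -2.28 in HCT-116, -0.72 in PC3 and -1.24 in T47D cells (largest adjusted p = 0.0144, edgeR), and -1.65 in T47D cells without both replicate 3 libraries. ATP6V0A2, of the membrane part, was also downregulated in all 4 lines (-0.66, -0.83, -0.28 and -0.68 in the same order, largest adjusted p = 0.0353). In HCT-116 cells, the normoxic libraries had 261, 440 and 194 CPM of ATP6V1G1 and the hypoxic ones 68.7, 71.3 and 62.9 CPM. ATP6V0B, also of the membrane part, was downregulated in A549 (-0.40), HCT-116 (-1.48) and T47D cells (-0.91), and TCIRG1 in HCT-116 (-0.85) and PC3 cells (-0.38). ATP6V0A1 was upregulated in A549 (0.49) and HCT-116 cells (1.0), and ATP6V0A4 was upregulated in A549 cells, at a low level of 0.233 CPM in normoxia and 0.697 CPM in hypoxia. Of the acid-sensing receptors and channels, GPR4 was upregulated in PC3 cells (1.07 ± 0.15, adjusted p = 0.00185) and ASIC1 in T47D cells (0.74 ± 0.21, adjusted p = 0.0395, and 0.79 without both replicate 3 libraries), and none was called in A549 or HCT-116 cells. The median log2 fold change of the lists ranged from -0.71 to 0.66 over the lines, where the median of all genes tested was between -0.03 and -0.01.

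**Figure D4:**
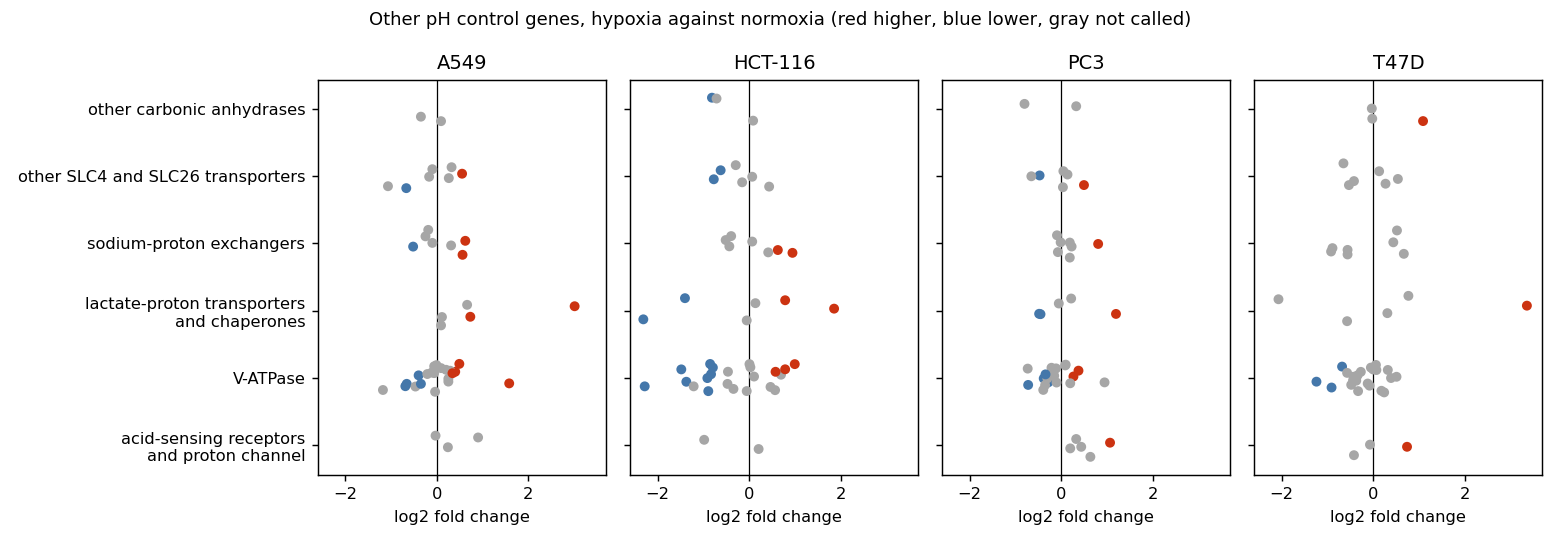
Log2 fold change in hypoxia against normoxia of the tested genes of 6 lists of pH control genes in the 4 lines. Each point is a gene, red upregulated, blue downregulated and gray neither, and the height within a list carries no value. SLC16A3 is the rightmost point of the lactate-proton transporters in every line, from 1.2 in PC3 to 3.36 in T47D cells.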

How the data were processed

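Whole-number counts per gene symbol were analyzed for 24 RNA-seq libraries. The authors deposited these counts without normalization, after trimming (Trim Galore 0.3.3), alignment to GRCh37 (HISAT2), exclusion of fragments without a unique position (Picard 2.0.1) and counting in intersection-strict mode (HTSeq 0.5.4p3), which lowers genes with close copies or overlapping neighbors. Versions come from the submitters' processing notes. Groups were taken from the sample labels. The 7 genes and the lists were chosen with earlier results of these data known.

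Computed here in R 4.3.3, each line was fitted with edgeR 4.0.16 (filterByExpr, TMM, glmQLFit and glmQLFTest), with Benjamini-Hochberg adjustment over all genes tested. Interactions and pairs of lines came from one fit of 24 libraries. Levels are CPM with TMM sizes of all libraries, and correlations used log2 CPM with a prior count of 2. The genes named are the 7, the 3 most correlated with each (mean log2 CPM over 1), the 2 largest changes per list and line, and overlapping genes, and further listed genes (CA8, SLC9A2, SLC9A5, ATP6V0A1, ATP6V0A2 and members with 0 counts, and values of genes so named in other lines) were named after their values were seen. Some items are not reported here. Lengths and positions came from GENCODE 44 on GRCh37.

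Both states carry the replicate numbers 1 to 3 in the labels. Deviations of same-numbered T47D libraries from their group means correlated with r = 0.115, 0.249 and 0.257. The labels state no pairing, and the T47D calls, errors and shares in the Results come from fits without a replicate block. With the replicate block, no member's call changed in T47D cells, and 1281 and 1485 genes were called higher and lower against 922 and 942 without it. In the other lines at least 1 pair had r under 0.1. Alternatives were DESeq2 1.42.0, RLE size factors or total counts as scaling, a minimum mean count of 50 or none, the block, one fit for all lines, thresholds of 1.5-fold or an adjusted p of 0.01, and omission of each library. Omission of T47D replicate 3 in both states (members, lists and carbonic anhydrase sums) and the length of all exons were added after seeing the data. The fits were also run on simulated counts. Changes were put only into genes above a minimum mean count, so a change from 0 counts, as for CA9 in T47D cells, was not covered. The floor of 3 counts covers counting error only. Each SE of a log2 fold change was back-calculated from the quasi-likelihood F statistic, so it includes the spread between libraries.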

Additional observations from a re-analysis of the deposited data

Results flagged for a closer look

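The effect of hypoxia differed between the 4 lines, by a test of the interaction itself, for 3 of the 7 genes. For CA9, the adjusted p was 7.28e-09, with log2 fold changes of 8.40 in A549, 7.37 in HCT-116 and 1.81 in PC3 cells and at least a 659-fold increase in T47D cells (hypoxic libraries above normoxic ones in 12 of 12). For CA12, the adjusted p was 0.000325, with log2 fold changes of 1.38, 1.47, 0.60 and -0.12 in the same order of lines. For CA11, the adjusted p was 0.0307, with log2 fold changes of -0.01, 0.58, 0.08 and 1.52. These p values are from edgeR's quasi-likelihood test with Benjamini-Hochberg adjustment over 16089 genes, of which 18.3% passed. With 1 library at a time left out, the adjusted p of CA11 ranged from 0.0127 to 0.0898 (edgeR), so it did not pass in every such fit. The highest value in these fits was 1.72e-07 for CA9 and 0.00147 for CA12.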

How the results depend on the processing

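Over 395 alternative values of the 26 member fold changes tested, 366 kept direction and call, 14 lost a call, 9 gained one and 6 changed sign, and none of the 12 called changes reversed. The calls of CA9 and CA12 were kept in 106 of 106 alternatives. Counts of members moved as follows. With total counts, 2 were lower in A549 cells (SLC4A7 added, -0.40), and 1 to 2 when 1 library was left out. In PC3 cells, 0 were lower in one fit of all 24 libraries, at a fold change over 1.5 and at an adjusted p under 0.01, and 0 to 1 with 1 library left out. In T47D cells, 1 to 4 were higher with libraries left out (1 without normoxia replicate 1, 4 without replicate 3 of both states). At an adjusted p under 0.01, 6 rather than 10 pairwise differences in effect passed. Reversed values, all of uncalled genes with 1 library left out, were 0.27, 0.06 and 0.18 for CA11 in A549 cells (range -0.28 to 0.27), 0.00 and -0.17 for SLC4A2 (-0.17 to 0.36) and -0.07 for SLC4A7 in HCT-116 cells (-0.07 to 0.24). The cause was not tested. With the replicate block, CA11 passed in HCT-116 cells (0.59, adjusted p = 0.0107) and the interaction of CA13 passed (adjusted p = 0.0226), with 4 rather than 3 members differing between lines; CA11 in HCT-116 cells also passed without the filter (0.65, adjusted p = 0.0211). The block changed no other call, and every library correlated best with its own number, except a tie for replicate 3 of normoxic HCT-116 cells, a hint from the data and not from the design. With total counts, the median of all genes moved by -0.12 in A549 and -0.11 in T47D cells, and the share of called genes that were higher was 33.9% against 49.8% in A549 and 32.1% against 49.5% in T47D cells.

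Over all genes, calls higher and lower were 1427 and 1182 in A549, 867 and 425 in PC3 and 2231 and 1599 in T47D cells in one fit, against 2452 and 2476, 2237 and 2109, and 922 and 942. At a fold change over 1.5 they were 1398 and 1144 in A549 and 1019 and 892 in PC3 cells. At an adjusted p under 0.01 they were 1438 and 1296 in A549, 977 and 572 in PC3 and 308 and 108 in T47D cells, and 2002 higher against 3170 in HCT-116 cells. With libraries left out, they ranged from 180 to 2918 and 19 to 3140 in T47D cells, from 1308 to 2629 and 875 to 2732 in PC3 cells, and from 1467 to 2629 lower in A549 cells. Counts were too low to test CA2 in PC3 cells (0 to 6) and gave a wide error for CA13 in A549 cells (2 to 40).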
